A study of Mus musculus with 8 samples.

Results

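The 10 circadian clock genes described here are *Per1*, *Per2*, *Per3*, *Cry1*, *Cry2*, *Clock*, *Nr1d1*, *Nr1d2*, *Dbp* and *Tef*, out of 19938 genes that the arrays measured with a probe set of 1 gene symbol. A gene was taken where the platform annotation gave a probe set that symbol alone, and each of the 10 had exactly 1 such probe set. The genes were chosen by name, with earlier results of these data known. A choice by highest mean among several probe sets of a gene was part of the rule but was not needed. Retinal RNA of C57BL/6J mice was hybridised to Affymetrix Mouse Gene 1.0 ST arrays, 8 in all and 2 per group, from 4 groups: control superior retina, control inferior retina, and the same regions of mice breathing 75% oxygen for 14 days. All mice lived under 12 h of light at 5 lux and 12 h of darkness, oxygen exposure started between 83 and 90 days of age, and controls were killed at the age of the exposed mice. Every sample pooled 2 animals, 1 male and 1 female. The sources used here give neither the hour of the light cycle at which retinas were removed nor whether equally numbered samples of separate groups share animals or a day.

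The circadian clock of mammals is a feedback loop of transcription with a period of about a day. CLOCK and its partner ARNTL (BMAL1) bind E-box sequences and activate the *Per* and *Cry* genes, whose proteins return to the nucleus and block CLOCK and ARNTL. In a further loop NR1D1 and NR1D2 (REV-ERB) repress *Arntl*, and DBP and TEF bind D-box sequences in output genes. The retina holds a clock of its own, entrained by light, so the level of most of these transcripts in whole retina depends on the time of day.

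The promoters of 9 of the 10 genes were found in RefSeq (GRCm38.p6), as 13 promoters because some genes have several start sites, and *Per2* was not among them. The 250 bases before each start were searched on both strands for the E-box CACGTG, the related E'-box CACGTT, the D-boxes TTATGTAA and TTACGTAA, and the cAMP response element TGACGTCA. The following 6 are shown because they hold such an element, which stands in capitals, in the strand direction of the gene; a match on the other strand reads AACGTG for the E'-box.
*Cry2* (chr2:92434070-92434319, minus strand): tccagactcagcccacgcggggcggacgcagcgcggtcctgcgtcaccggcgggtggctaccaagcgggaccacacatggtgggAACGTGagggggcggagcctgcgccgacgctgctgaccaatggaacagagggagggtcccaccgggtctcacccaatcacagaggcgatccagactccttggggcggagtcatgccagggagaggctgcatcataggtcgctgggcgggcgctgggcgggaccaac
*Per3* (chr4:151044666-151044915, minus strand): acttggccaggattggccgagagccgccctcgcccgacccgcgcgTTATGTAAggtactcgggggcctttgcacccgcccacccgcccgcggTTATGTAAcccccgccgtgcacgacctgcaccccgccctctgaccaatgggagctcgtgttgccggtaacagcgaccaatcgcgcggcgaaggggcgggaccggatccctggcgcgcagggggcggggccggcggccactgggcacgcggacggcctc
*Cry1* (chr10:85185055-85185304, minus strand): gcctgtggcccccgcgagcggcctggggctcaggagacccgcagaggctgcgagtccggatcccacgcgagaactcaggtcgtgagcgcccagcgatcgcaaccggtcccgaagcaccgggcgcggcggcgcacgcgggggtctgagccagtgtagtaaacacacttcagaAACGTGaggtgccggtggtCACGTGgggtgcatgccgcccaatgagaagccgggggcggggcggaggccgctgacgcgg
*Per1* (chr11:69098699-69098948, plus strand): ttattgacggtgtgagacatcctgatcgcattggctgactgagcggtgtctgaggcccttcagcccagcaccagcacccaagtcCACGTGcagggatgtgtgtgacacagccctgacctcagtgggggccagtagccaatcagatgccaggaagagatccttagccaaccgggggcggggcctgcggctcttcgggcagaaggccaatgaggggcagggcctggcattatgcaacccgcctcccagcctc
*Nr1d1* (chr11:98775378-98775627, minus strand): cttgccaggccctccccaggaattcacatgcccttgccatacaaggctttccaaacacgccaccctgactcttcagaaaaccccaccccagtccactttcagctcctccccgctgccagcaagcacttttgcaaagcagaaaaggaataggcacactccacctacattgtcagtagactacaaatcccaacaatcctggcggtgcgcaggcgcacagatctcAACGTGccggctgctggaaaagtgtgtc
*Tef* (chr15:81802423-81802672, plus strand): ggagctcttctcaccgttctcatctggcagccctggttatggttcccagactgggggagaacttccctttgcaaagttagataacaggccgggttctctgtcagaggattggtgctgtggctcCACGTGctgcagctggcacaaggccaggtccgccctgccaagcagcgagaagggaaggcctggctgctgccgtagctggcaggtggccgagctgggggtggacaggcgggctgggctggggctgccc
In *Per1* the E-box began 166 bases before the start, and in *Tef* 127 bases before it. *Cry1* held an E'-box 79 bases and an E-box 60 bases before its start, with no overlap between them. The E'-box lay 166 bases before the start of *Cry2* and 28 bases before that of *Nr1d1*, and *Per3* held 2 copies of the D-box TTATGTAA, 205 and 158 bases before the start. The E-box stood in 4 of the 13 promoters against 6.02% of 32851 promoters in RefSeq, the E'-box in 3 against 3.85%, and TTATGTAA in 1 against 0.819%. Those 4 belong to *Cry1*, *Per1* and 2 starts of *Tef*, of which only the first is printed. The E-box lies 127 and 138 bases before these *Tef* starts and may be the same site counted again. TTACGTAA, found in 0.113% of all promoters, and the cAMP response element, found in 1.55%, stood in 0 of the 13. A match of letters describes the sequence and does not show that a factor binds there.

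The array medians over all 28853 probe sets ran from 6.98 to 7.05 on the log2 scale. The tissue carried rod transcripts on every array, such as *Gnat1*, rod transducin, at 14.08 to 14.26. In the inferior region after hyperoxia, 4 of the 6 rod genes measured (8 listed) lay lower without overlap, against 18.1% of all probe sets. *Nrl*, a rod transcription factor, was at a log2 difference of -0.41 (adjusted p = 0.136 by limma). *Cnga1*, a channel subunit of rods, was at -0.31 (adjusted p = 0.507 by limma), *Pde6a* at -0.18 and *Pde6b* at -0.16. The other rod genes, *Sag* at 0.03 and *Gnat1* at -0.03, overlapped. Lens transcripts, 10 of 11 listed and measured, stood apart on control inferior replicate 2, where they exceeded their own mean over the arrays by a median of 3.44, against -0.94 to 0.03 on the other 7. Transcripts of the retinal pigment epithelium (9 of 9 listed) had medians of -0.90 to 0.31 on control and -0.01 to 0.52 on hyperoxia arrays, and those of microglia (9 of 9) -0.75 to -0.42 on control, -0.03 and 0.08 on hyperoxia superior and 1.01 and 1.19 on hyperoxia inferior arrays. The summed linear signal of the pigment epithelium genes was 2411 and 5647 in control superior, 4153 and 8171 in control inferior, 8493 and 8977 in hyperoxia superior, and 8632 and 7517 in hyperoxia inferior retina, that of the microglia genes ran from 1249 to 1492 on control, from 1987 to 2100 on hyperoxia superior and from 4020 to 4438 on hyperoxia inferior arrays, and no marker was at 0. Their part in the clock gene values was not tested beyond a model with the pigment or lens genes as a covariate, which called 0 of the 10. In bulk tissue, fewer cells of a type and less RNA in each cell cannot be told apart. The p-values reflect the spread among these samples alone, which may be technical in part, and precision is limited by the number of arrays.

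Each level below is the log2 value of one probe set, which can be compared between arrays but not between genes. Across the 8 arrays the clock genes varied little: their full range ran from 0.11 (*Nr1d2*, 1.08-fold between the lowest and highest array) to 0.45 (*Dbp*, 1.36-fold). The median SD of the 10 over all arrays was 0.0733, against 0.121 for all probe sets and 0.107 for the 18858 probe sets with a mean of at least 6, a level that all 10 reached. Of all probe sets, 60.0% had a smaller SD than *Dbp*, 49.8% a smaller one than *Cry2* and 34.2% a smaller one than *Nr1d1*. The shares for the other 7 were between 0.988% for *Nr1d2* and 17.9% for *Per1*.

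**Figure D1:**
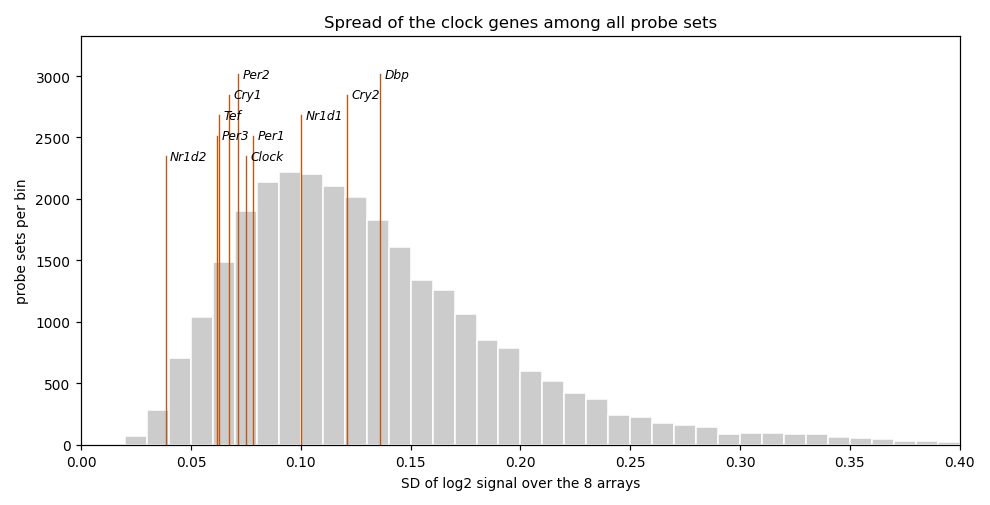
Histogram of the SD over the 8 arrays (log2 scale, x axis) of probe sets, counted on the y axis, with the SD of each clock gene marked. The axis ends at 0.4, and the 361 probe sets (1.25%) beyond it are not drawn. The SD of 9 of the 10 genes lies below 0.121, the median of all probe sets, with *Cry2* nearest to it, and that of *Dbp* lies above it.

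*Per1*, *Per2* and *Per3* encode PERIOD proteins, the partners of the cryptochromes in the repressor complex. *Per1*, which light induces in clock tissues, measured 8.9996 and 8.93 in control superior, 8.90 and 8.92 in control inferior, 8.82 and 8.97 in hyperoxia superior, and 8.76 and 8.86 in hyperoxia inferior retina (log2 level, replicates 1 and 2). Both hyperoxia inferior arrays lay below both control inferior arrays, while the superior groups overlapped. *Per2* stood at 7.75 and 7.87 in control superior, 7.94 and 7.89 in control inferior, 7.78 and 7.80 in hyperoxia superior, and 7.76 and 7.90 in hyperoxia inferior retina. Its control inferior arrays were above its control superior arrays, and no other pair of groups separated by region or by oxygen. *Per3* read 8.81 and 8.84 in control superior, 8.80 and 8.79 in control inferior, 8.71 and 8.65 in hyperoxia superior, and 8.74 and 8.80 in hyperoxia inferior retina. The 2 lowest of its 8 values were the hyperoxia superior arrays, which overlapped neither control superior nor hyperoxia inferior.

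*Cry1* and *Cry2* encode the cryptochromes, which block CLOCK and ARNTL directly. *Cry1* measured 9.31 and 9.46 in control superior, 9.40 and 9.47 in control inferior, 9.29 and 9.38 in hyperoxia superior, and 9.38 and 9.32 in hyperoxia inferior retina. *Cry2* measured 9.68 and 9.55 in control superior, 9.66 and 9.59 in control inferior, 9.34 and 9.68 in hyperoxia superior, and 9.44 and 9.59 in hyperoxia inferior retina. For both genes the hyperoxia inferior arrays were below the control inferior arrays, although the nearest 2 *Cry2* arrays both round to 9.59, and the superior groups overlapped. *Cry2* replicate 1 of hyperoxia superior was the lowest of the 8 and replicate 2 of that same group was among the 2 highest.

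*Clock*, the activator of the core loop, measured 10.10 and 9.91 in control superior, 9.996 and 9.98 in control inferior, 9.97 and 9.96 in hyperoxia superior, and 10.08 and 9.88 in hyperoxia inferior retina. The groups overlapped in all 4 comparisons of regions and oxygen, and in control superior and hyperoxia inferior retina the gap between replicates was larger than any gap between group means. *Nr1d1* read 11.16 and 11.14 in control superior, 11.20 and 11.12 in control inferior, 10.92 and 11.19 in hyperoxia superior, and 10.98 and 11.14 in hyperoxia inferior retina. *Nr1d2* read 10.58 and 10.50 in control superior, 10.52 and 10.54 in control inferior, 10.53 and 10.61 in hyperoxia superior, and 10.50 and 10.57 in hyperoxia inferior retina. These genes encode the heme-binding REV-ERB repressors, and for both every comparison of regions and oxygen overlapped. The control arrays of *Nr1d1* lay between 11.12 and 11.20, and replicate 1 of both hyperoxia groups lay below all of them.

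*Dbp* and *Tef* encode PAR bZIP transcription factors, which carry the rhythm of the clock to output genes. *Dbp* measured 10.53 and 10.42 in control superior, 10.35 and 10.49 in control inferior, 10.15 and 10.44 in hyperoxia superior, and 10.40 and 10.59 in hyperoxia inferior retina. *Tef* measured 9.67 and 9.61 in control superior, 9.73 and 9.64 in control inferior, 9.56 and 9.63 in hyperoxia superior, and 9.70 and 9.75 in hyperoxia inferior retina. The lowest *Dbp* value, again hyperoxia superior replicate 1, and the highest, hyperoxia inferior replicate 2, both came from exposed retinas. For *Tef* both hyperoxia inferior arrays were above both hyperoxia superior arrays, and the other comparisons overlapped. Hyperoxia superior replicate 1 was the lowest of the 8 arrays for 5 of the 10 genes, *Cry1*, *Cry2*, *Nr1d1*, *Dbp* and *Tef*, and 13.8% of all probe sets had their lowest value on it.

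**Figure D2:**
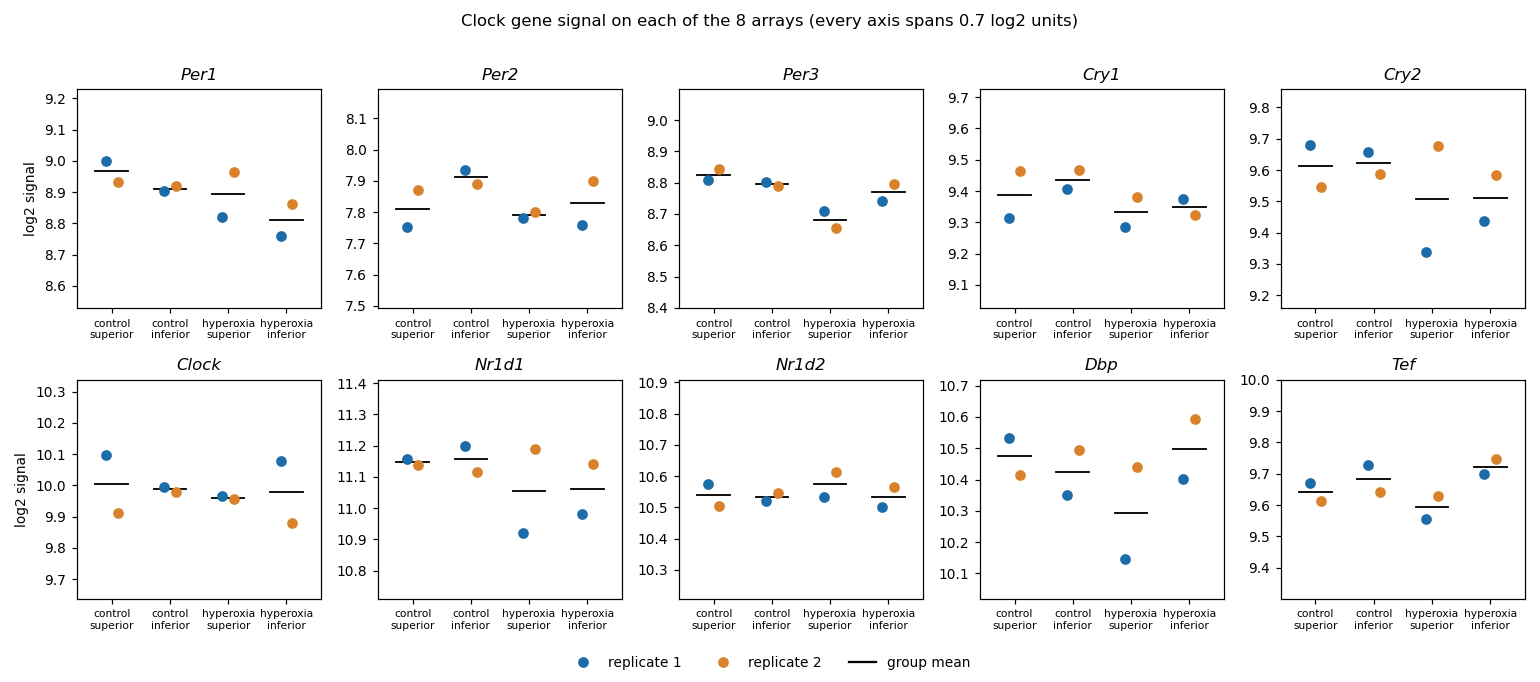
Log2 level of each of the 10 clock genes (1 panel per gene, y axis) on the 8 arrays by group (x axis), with replicate 1 and replicate 2 marked apart and a bar at the group mean. *Dbp* has the widest range at 0.45 and *Nr1d2* the narrowest at 0.11, and replicate 1 of hyperoxia superior sits lowest in 5 panels.

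The first question was whether hyperoxia moved the clock genes in the inferior retina, the region that the study describes as the more vulnerable to oxygen. There 0 of the 10 passed an adjusted p of 0.05 by limma, against 0.492% of all probe sets, and 0 had an unadjusted p under 0.05, against 9.39%. The differences ran from -0.11 for *Cry2* (95% interval -0.40 to 0.17) to 0.07 for *Dbp* (-0.21 to 0.36), and the adjusted p from limma from 0.787 to 0.997. *Per1* differed by -0.10 (-0.31 to 0.11) and *Nr1d1* by -0.10 (-0.35 to 0.16). When 1 array was left out, *Cry2* ran from -0.19 to -0.04, *Nr1d1* from -0.18 to -0.02 and *Dbp* from -0.02 to 0.17, each at its ends without a hyperoxia inferior array. The arrays of 3 genes, *Per1*, *Cry1* and *Cry2*, lay lower without overlap, against 18.1% of all probe sets, and 0 lay higher, against 20.5%. The median difference of the 10 was -0.06, beside 0.01 over all probe sets.

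In the superior retina 0 of the 10 passed (limma; 0.0173% of all probe sets did), and 0 had an unadjusted p under 0.05, against 5.59%. *Dbp* had the most negative difference, -0.18 (95% interval -0.47 to 0.11), and *Per3* the smallest p, at -0.14 (-0.33 to 0.04; adjusted p = 0.906 by limma). *Per3* was also the 1 gene whose arrays lay lower without overlap, against 17.2% of all probe sets, and 0 lay higher, against 18.7%. *Nr1d2* had the highest difference at 0.03 (-0.16 to 0.23). The value of *Dbp* rested on 1 array: it was -0.03 when hyperoxia superior replicate 1 was left out and -0.33 when replicate 2 of that group was. That of *Cry2*, -0.11 with all arrays, was 0.06 and -0.27 in the same order, and that of *Nr1d1*, -0.09, was 0.04 and -0.23. *Per3* stayed between -0.17 and -0.12 when any 1 array was left out.

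Averaged over both regions, the difference between hyperoxia and control was below 0 for 9 of the 10 genes, the exception being *Nr1d2* at 0.02. The count was 10 after centring of the arrays, 8 after quantile normalization and between 7 and 10 when 1 array was left out. The median over all probe sets was 0.0037, and the share of them below 0 is not given here. The genes are not separate observations: their Pearson r over the 8 arrays ran from -0.62 (*Per2* and *Clock*) to 0.96 (*Cry2* and *Nr1d1*). Each of the 10 overlapped between oxygen conditions, where 5.49% of all probe sets did not. By limma 0 of the 10 passed, against 0.568% of all probe sets, and 0 had an unadjusted p under 0.05, against 8.98%. *Cry2* had the most negative value, -0.11 (95% interval -0.31 to 0.09), followed by *Nr1d1* at -0.09 (-0.28 to 0.09), *Per1* at -0.09 (-0.24 to 0.06) and *Per3* at -0.09 (-0.22 to 0.05; adjusted p = 0.718 by limma). This order rested on single arrays, since leaving 1 out moved *Cry2* to between -0.19 and -0.02 and *Nr1d1* to between -0.16 and -0.03. Every interval of the 10 genes held 0, and together they reached from 1.24-fold lower to 1.11-fold higher. These arrays cannot tell changes within that range from no change. The fit counts the regions as separate samples. If the regions of a replicate come from the same animals, these intervals are too narrow. The methods' t-test on the same values called 0 of the 10 after adjustment in any comparison, and gave *Per3* an unadjusted p of 0.0096 in the superior region (adjusted p = 0.825), 0.018 over both regions (adjusted p = 0.478) and 0.048 between the exposed regions (adjusted p = 0.665).

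**Figure D3:**
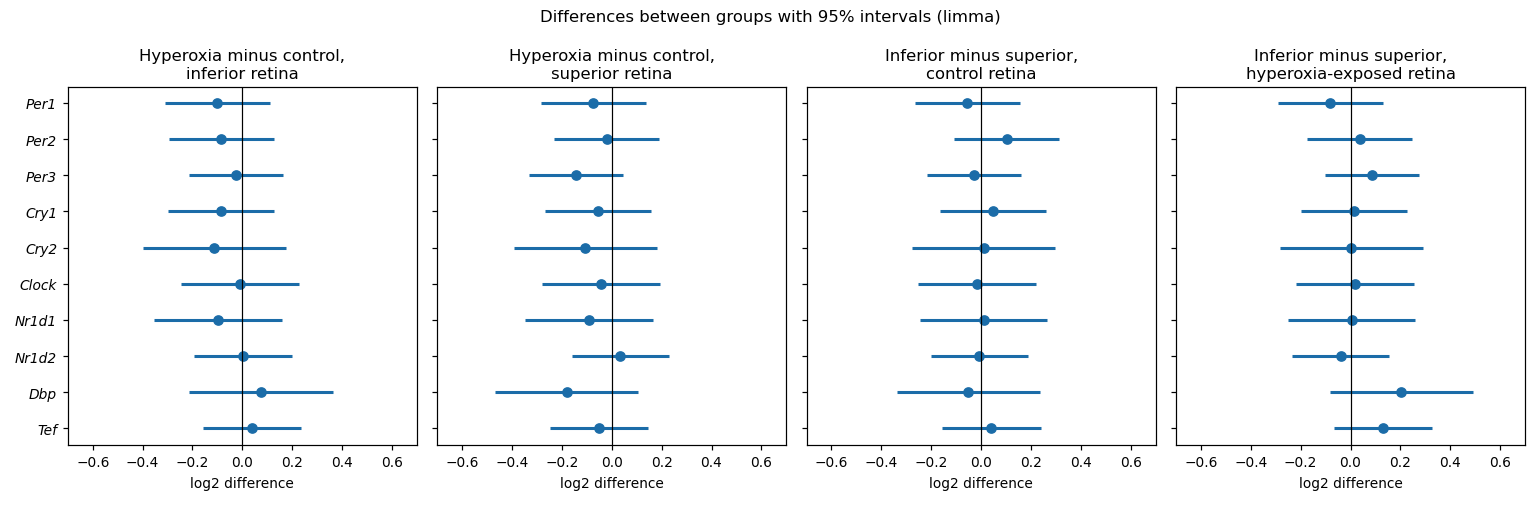
Difference in log2 level with its 95% interval (x axis, limma) for each clock gene (y axis), for hyperoxia against control and for inferior against superior retina. Each interval crosses 0, and the widest differences are -0.18 and 0.20, both for *Dbp*.

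The study also compared the inferior with the superior region. In control retinas 0 of the 10 passed by limma, as did 0% of all probe sets, and 0 had an unadjusted p under 0.05, against 5.3%. *Per2* had the highest difference at 0.10 (95% interval -0.11 to 0.31) and *Per1* the lowest at -0.06 (-0.27 to 0.16). Without overlap, *Per2* lay higher in the inferior region (17.5% of all probe sets) and *Per1* and *Per3* lay lower (16.7%). The median of the 10 was 0.00.

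In exposed retinas 0 of the 10 passed by limma, against 0.139% of all probe sets, and 0 had an unadjusted p under 0.05, against 8.5%. *Dbp* was 0.20 higher in the inferior region (95% interval -0.08 to 0.49; adjusted p = 0.715 by limma), which came to 0.06 when hyperoxia superior replicate 1 was left out and to 0.35 when replicate 2 of that group was. *Tef* was 0.13 higher (-0.07 to 0.33) and *Per3* 0.09 higher (-0.10 to 0.28), and these were the 2 genes that lay higher without overlap, against 20% of all probe sets, and 0 lay lower, against 18.5%. *Per1* was the lowest at -0.08 (-0.29 to 0.13).

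Over both oxygen conditions the difference between inferior and superior retina ran from -0.07 for *Per1* (95% interval -0.22 to 0.08) to 0.09 for *Tef* (-0.05 to 0.22). By limma 0 of the 10 passed, against 0.0173% of all probe sets, 0 had an unadjusted p under 0.05, against 7.87%, and 0 were free of overlap, against 3.54%. Whether the change with hyperoxia differed between the regions was tested as an interaction, in which 0 of the 10 passed by limma (0.00347% of all probe sets did) and 0 had an unadjusted p under 0.05 (6.04%). The highest value was that of *Dbp*, whose change was 0.26 more positive in the inferior than in the superior retina (SE 0.18, 95% interval -0.15 to 0.66, adjusted p = 0.871 by limma), and it lay between 0.11 and 0.40 when 1 array was left out.

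For several genes the replicates of a group differed by more than the groups did. Between replicate 2 and replicate 1 of hyperoxia superior the 4 largest differences were 0.34 for *Cry2*, 0.30 for *Dbp*, 0.27 for *Nr1d1* and 0.15 for *Per1*. Each was larger in size than any difference of that gene between groups of the same region. In hyperoxia inferior the same 4 genes differed by 0.15, 0.19, 0.16 and 0.10. In control superior they differed by -0.13, -0.12, -0.02 and -0.07, and in control inferior by -0.07, 0.14, -0.08 and 0.01. Replicate 2 was thus the higher of the pair in both exposed regions for all 4, and in control retinas the signs were mostly negative.

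Over the set, 7 of the 10 genes, *Per1*, *Per2*, *Cry2*, *Nr1d1*, *Nr1d2*, *Dbp* and *Tef*, were higher in replicate 2 in both exposed regions, against 28.8% of all probe sets. After centring of the arrays or quantile normalization 6 were, without *Tef* and without *Per2*. In control retinas 1 gene, *Cry1*, was higher in replicate 2 in both regions, against 24.8%, and 4, *Cry2*, *Clock*, *Nr1d1* and *Tef*, were lower in both, against 26.8%. *Clock* was lower in replicate 2 in all 4 groups, by 0.19, 0.02, 0.01 and 0.20 in the order control superior, control inferior, hyperoxia superior and hyperoxia inferior, where 13.5% of all probe sets kept 1 sign in all 4. The sign in all 4 was lost after centring of the arrays, where replicate 2 was higher by 0.0031 in hyperoxia superior, and after quantile normalization, where it was higher by 0.011 in control inferior retina. The exposed regions of 1 replicate may come from the same animals, in which case the agreement of both regions counts those animals once. Pigment epithelium medians for replicates 1 and 2 were 0.45 and 0.52 in hyperoxia superior and -0.01 and 0.20 in hyperoxia inferior retina, where lens medians were -0.54, -0.33, -0.67 and -0.12 and rod medians 0.08, 0.04, -0.01 and -0.30. Medians of 7 Muller glia genes went from 0.01 to -0.08 in control superior, from 0.09 to 0.04 in control inferior, from -0.14 to 0.08 in hyperoxia superior and from 0.04 to 0.15 in hyperoxia inferior retina between replicate 1 and replicate 2. Those of the microglia genes went from -0.57 to -0.75, from -0.42 to -0.45, from -0.03 to 0.08 and from 1.01 to 1.19 in the same order. The medians of both lists were thus lower in replicate 2 in control and higher in exposed retina. The summed signal of the Muller glia genes nevertheless rose in control inferior retina, from 24896 to 26849. Rod medians moved the other way, from 0.03 to 0.10 in control superior and from 0.022 to 0.024 in control inferior retina. With the pigment epithelium genes as a covariate, replicate 2 was higher by 0.33 for *Cry2*, 0.27 for *Nr1d1* and 0.31 for *Dbp* over all groups, against 0.07, 0.08 and 0.13 without it. Their unadjusted p values were then 0.024, 0.044 and 0.047, and the adjusted p was 0.818 for each by limma. The share of all probe sets under an unadjusted p of 0.05 in this fit is not given here. Pigment medians also rose from replicate 1 to 2 in control superior (-0.90 to -0.10) and control inferior (-0.44 to 0.31). They were thus higher in replicate 2 in all 4 groups, so this fit separates covariate and replicate poorly. The part of the Muller glia, microglia and rod genes in the replicate differences was not tested.

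Across all 4 groups, the comparison of replicate 2 with replicate 1 called 0 of the 10 by limma, as it did 0% of all probe sets, with 0 at an unadjusted p under 0.05, against 5.64%, and 0 free of overlap, against 2.46%. *Dbp* was 0.13 higher in replicate 2 (95% interval -0.06 to 0.32) and *Clock* 0.10 lower (log2 difference -0.10, -0.26 to 0.06), both with an adjusted p of 0.927 by limma. The other 8 lay between -0.01 for *Tef* and 0.08 for *Nr1d1*.

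**Figure D4:**
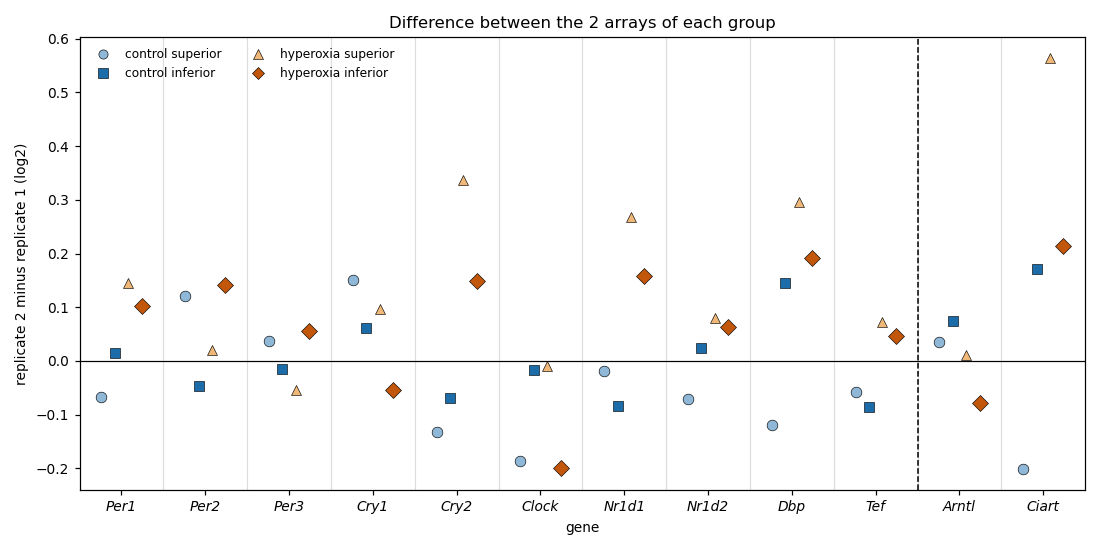
Replicate 2 minus replicate 1 in log2 level (y axis) for each clock gene and, right of a dashed line, *Arntl* and *Ciart* (x axis). Each gene has 1 point in each of the 4 groups. In the hyperoxia groups 8 of 10 clock genes lie above 0 in each region, against 3 in control superior and 4 in control inferior. The highest clock gene point is 0.34 for *Cry2*, and *Ciart* reaches 0.56 in hyperoxia superior.

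Other genes of the clock pathway were listed in 5 groups: the activators of the loop, further repressors and output factors, the kinases and ubiquitin ligases that set the stability of PER and CRY, widely rhythmic output genes, and retinal melatonin, dopamine and melanopsin genes. Of 48 listed, 43 were measured, and 0 of 43 passed an adjusted p of 0.05 by limma in any of the 8 comparisons. At an unadjusted p under 0.05 there were 2 of 43 for hyperoxia in the inferior region, 4.65% beside the 9.39% of all probe sets: *Adcy1*, an adenylyl cyclase, at 0.30 (adjusted p = 0.492 by limma) and *Adcyap1*, which encodes PACAP, a transmitter of melanopsin ganglion cells, at -0.26 (0.522). In the superior region there were 2, *Arntl2*, a paralog of *Arntl*, at 0.27 and *Drd4*, a dopamine receptor, at 0.26, or 4.65% beside 5.59% of all probe sets. Over both regions there were 4, or 9.3% beside 8.98%: *Hlf*, the remaining PAR bZIP gene, at -0.16, *Fbxl21*, a ubiquitin ligase subunit for cryptochromes, at 0.24, *Tspan4* at 0.27 and *Adcyap1* at -0.20.

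Between the regions, the control retinas had 2 such genes, *Nfil3*, a repressor that competes at D-boxes, at 0.39 and *Bhlhe40*, an E-box repressor, at 0.25 in the inferior relative to the superior region, or 4.65% beside 5.3% of all probe sets. The exposed retinas had 2, or 4.65% beside 8.5%, *Arntl2* at -0.23 and *Mtnr1b*, a melatonin receptor, at -0.24. Over both oxygen conditions there were 3, or 6.98% beside 7.87%, *Bhlhe40* at 0.20, *Mtnr1b* at -0.19 and *Th*, which encodes the rate-limiting enzyme of dopamine synthesis, at -0.19. The interaction gave 1, or 2.33% beside 6.04%, *Tsc22d3*, which glucocorticoids induce, at -0.30, with *Arntl2* next at -0.28 (unadjusted p = 0.051, adjusted p = 0.822 by limma). The comparison of replicates gave 2, or 4.65% beside 5.64%, *Rorb*, an activator related to the receptors that act on *Arntl*, at -0.34 and *Tspan4* at 0.20. None of these passed after adjustment by limma, with adjusted p from 0.452 upward.

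*Arntl* itself, the partner of *Clock*, differed between replicate 2 and replicate 1 by 0.04, 0.07, 0.01 and -0.08 in control superior, control inferior, hyperoxia superior and hyperoxia inferior retina. Over all 43 genes, 12 were higher in replicate 2 in both exposed regions, near the 28.8% of all probe sets.

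The pattern of *Dbp* over the 8 arrays was most like that of *Trim66* (Pearson r = 0.978), *Ciart*, which encodes a clock repressor (0.959), *Smg9* (0.955), *Nsmce3* (0.954) and *Cntnap5c* (0.950), among 15242 candidate probe sets with 1 symbol and a mean log2 value of at least 6. That of *Cry2* was most like *Qpct* (0.976), *Diras2* (0.975), *Glra2* (0.972), *Pnmal2* (0.964) and *Cpne6* (0.962). With 8 arrays and so many candidates high values occur, and the 20th gene for *Dbp* was still at 0.929 and for *Cry2* at 0.939. *Ciart* was higher in replicate 2 than in replicate 1 by 0.17 in control inferior, 0.56 in hyperoxia superior and 0.21 in hyperoxia inferior, and differed by -0.20 in control superior retina. A further probe set of *Ciart* had an r of 0.62 with *Dbp* and differed between replicates by 0.15 in control superior, -0.11 in control inferior, 0.21 in hyperoxia superior and 0.07 in hyperoxia inferior retina, with the opposite sign to the first in both control groups.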

How the data were processed

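The 8 arrays hold retinal RNA of 4 groups, 2 samples each, grouped by the submitters' labels. The authors corrected the background by RMA and summarised probes by median polish in Partek, and deposited log2 values of 28853 probe sets; the sources used here name neither versions nor a normalization between arrays. The values were used as deposited. The platform annotation lists 1 gene symbol for 21789 of them, several for 1621 and none for 5443, and only the first kind was named. The Entrez ID of 10 of 10 clock genes matched the RefSeq gene table (GRCm38.p6). In that table *Per2* overlaps *Gm35591*, *Per3* overlaps *Uts2*, *Cry2* overlaps *D930015M05Rik*, *Clock* overlaps *Ube2n-ps1* and *Gm7467*, *Nr1d1* overlaps *Thra* and *Dbp* overlaps *Sphk2*, so signal from shared exons cannot be told apart where the strand is the same; the labels describe sense-strand targets.

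In R 4.3.3, limma 3.58.1 estimated group means over all 8 arrays (4 residual and 4.47 prior degrees of freedom). Benjamini-Hochberg adjustment of the moderated two-sided p-values ran over all probe sets, calls were made at 0.05, and intervals are the unadjusted 95% intervals of that fit. The replicate comparison added the replicate number to the group means. With 2 arrays in a group an exact permutation test cannot pass the threshold. In simulated data (28853 probe sets), the test of the hyperoxia main effect recovered 47.8% of 67 given a log2 change of 0.5. It recovered 94% of 67 at a change of 1 and 100% of 66 at 2. The test of hyperoxia in the inferior retina, with 2 arrays against 2, recovered 22.4%, 79.1% and 97%. The median residual SD was 0.0687 for the clock genes and 0.110 for all probe sets. These rates therefore do not give the recovery for the 10 genes, nor for regions that share animals. The text names all 10 clock genes and, of the listed pathway genes, those past the adjusted p or otherwise the 2 of smallest p in a comparison; further genes below an unadjusted p of 0.05 were named after their values were seen. For the 2 clock genes of largest SD, the 5 genes of highest Pearson r were also named. The members and lists were chosen with earlier results of these data known. Some genes of these lists are not reported here. The alternatives were quantile normalization, median centring, a filter on dim probe sets, 1-symbol probe sets only, averaging probe sets per gene, the methods' t-test, a fit on the compared arrays alone, a replicate block, a variance trend, a robust prior, covariates for lens and pigment epithelium transcripts, and leaving out each array.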

Additional observations from a re-analysis of the deposited data

Results flagged for a closer look

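*Cry2*, *Nr1d1* and *Tef* were lower in replicate 2 than in replicate 1 in both control regions and higher in both exposed regions. Replicate 2 minus replicate 1 in the order control superior, control inferior, hyperoxia superior and hyperoxia inferior was -0.13, -0.07, 0.34 and 0.15 for *Cry2*, -0.02, -0.08, 0.27 and 0.16 for *Nr1d1*, and -0.06, -0.09, 0.07 and 0.05 for *Tef* (log2 differences, 1 array per replicate and group). The difference was not tested, and 14.3% of all probe sets had one sign in both control regions and the other in both exposed regions.

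*Per3* lay lower in inferior than in superior retina on both control arrays, by -0.03 between the group means, and higher on both exposed arrays, by 0.09. The test of this difference, the interaction, gave 0.12 (95% interval -0.15 to 0.38, adjusted p = 0.921 by limma). Of all probe sets, 16.7% lay lower without overlap in control retina and 20% higher in exposed retina. The share that did both is not given here.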

How the results depend on the processing

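In all 155 pairs of a comparison and an alternative, the number of clock genes past the adjusted p stayed at 0. Their 1550 differences moved by under 1 replicate SD in 1492 pairs and by more in 58, and 117 changed sign, none of which was called with all arrays. Many of the 1492 could not move. The dim filter, 1-symbol subset, averaging per gene, t-test, variance trend, robust prior, block and compared-arrays fit leave these differences unchanged by construction. Leaving out an array outside a comparison does the same. The 1492 therefore overstates how far the differences were put to a test. The smallest adjusted p of a clock gene under any alternative was 0.478 (*Per3*, hyperoxia over both regions, the methods' t-test), followed by 0.562 (*Cry2*, the same comparison without hyperoxia superior replicate 2) and 0.574 (*Dbp*, inferior against superior in exposed retina without that array). The median over the 10 genes for hyperoxia in the superior region was -0.01 when replicate 1 of the hyperoxia superior group was left out and -0.11 when its replicate 2 was. The pairing of samples by number rests on the number alone: the replicate differences of different groups correlated at -0.02 to 0.14 over probe sets. The fit with a replicate block called 0 of the 10 in 7 comparisons, with a smallest adjusted p of 0.679 for *Dbp* by limma. Its block is a term for the replicate number over all groups. That term does not model animals shared by the regions of 1 oxygen condition, so the fit cannot check such pairing.

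Over all probe sets the number called for hyperoxia over both regions, 164, was 270 without dim probe sets, 291 with a variance trend, 30 with the pigment epithelium covariate, 2 by the methods' t-test, and 56 to 98 without 1 control superior, hyperoxia superior or hyperoxia inferior array. For hyperoxia in the inferior region the 142 became 259, 374 and 2 without dim probe sets, with a variance trend and by the t-test, and 39 with only the arrays of the comparison. It was 80 without either control superior array, 78 without control inferior replicate 2, and 61 and 35 without hyperoxia inferior replicates 1 and 2. Between the exposed regions the 40 became 70, 84 and 0 under the same 3 settings, 22 with only the arrays of the comparison, 25 under the block and 1 with the pigment covariate. It was 18 without either control superior array, 69 and 0 without hyperoxia superior replicates 1 and 2, and 3 and 1 without hyperoxia inferior replicates 1 and 2. In the other comparisons, where 0 to 5 were called, the alternatives gave 0 to 21 for hyperoxia in the superior region, 0 to 53 between control regions, 0 to 59 for region over both conditions and 0 to 30 for the interaction, with the last 3 maxima without control inferior replicate 1. For the 0 of the replicate comparison, 11 were called after centring, 10 without dim probe sets and 12 with a variance trend. The adjustment of the t-test p-values is not part of the paper's methods, which for hyperoxia name a 2-way ANOVA. The t-test counts are therefore no recount of the genes that the paper reported. With 2 arrays in a group, changes smaller than the printed intervals cannot be resolved.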
